A study of Mus musculus with 15 samples.

Results

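The 37 genes described here are genes by which endothelial cells, the cells that line blood vessels, are usually recognised, together with the ligands and receptors that drive the growth of new vessels. They were listed by symbol and looked up in a table of 14337 genes measured by poly(A) RNA sequencing in 15 libraries of mouse cardiomyocytes. Rows were found for 32 of the 37. Of these, 26 had a mean level of at least 0 on the log2 RPKM scale and were tested among 12848 genes, and 6 (Icam2, Ramp2, Robo4, Nos3, Hhex and Erg) lay below that line and were left out of the main test. Sox17, Aplnr, Dll4, Sox18 and Cldn5 were not analysed here. The level used throughout is log2 RPKM (reads per kilobase of transcript, scaled to the size of the library and deposited after conditional quantile normalisation), which is a level per length, so that levels can be set side by side between genes.

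All libraries came from primary cardiomyocytes that were isolated from whole hearts of wild-type C57/BL6 pups, 1 to 3 days old. Culture lasted 5 days and was followed by 24 h of starvation (0.5% FBS). Treatment began on day 6, was repeated on the next day and ended with the harvest on day 8. The control group received saline (n = 3, libraries S1 to S3). The AngII group received 1 µM angiotensin II, the peptide hormone that raises blood pressure and drives growth of heart muscle cells (n = 4, S5 to S8). The ldCil group received 20 nM cilengitide, a cyclic peptide that binds integrins of the alpha-v family (n = 4, S9 to S12), and the AngII + ldCil group received both agents at these doses (n = 4, S13 to S16). The design therefore asks whether each agent changed expression in cultured heart cells, and whether the low dose of cilengitide changed the response to AngII. Neither the labels nor the study's methods say whether libraries of a group came from separate cultures. The p-values set a difference of group means against the spread of these libraries within groups, and that spread may be technical.

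In vessels, VEGF ligands bind the receptors Flt1 and Kdr on endothelial cells, with the neuropilins Nrp1 and Nrp2 as co-receptors, and Kdr carries most of the signal for division and migration. The angiopoietins act on Tek, and Tie1 and the phosphatase Ptprb adjust its activity, while Notch signalling limits how many cells lead a sprout. Heart muscle lies next to a dense capillary bed, and cultures made from whole hearts can carry endothelial cells along with cardiomyocytes. In bulk libraries, fewer cells of a type and less RNA per cell cannot be told apart.

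The promoters of 4 of the genes are printed because the treatment comparisons below turn on Kdr and Flt1, and because Cd34 and Emcn carry the short ETS-type motif that was searched. ETS factors such as Erg bind sequences with this core in endothelial promoters. Each run holds the 250 bases before a RefSeq transcription start, 5′ to 3′ on the gene's strand, in build GRCm38.p6, and capitals mark the motif CAGGAAG or its reverse complement CTTCCTG. The windows are chr5:75978456-75978705 for Kdr (minus strand), chr5:147726012-147726261 for Flt1 (minus strand), chr1:194938571-194938820 for Cd34 (plus strand) and chr3:137340828-137341077 for Emcn (plus strand).
Kdr: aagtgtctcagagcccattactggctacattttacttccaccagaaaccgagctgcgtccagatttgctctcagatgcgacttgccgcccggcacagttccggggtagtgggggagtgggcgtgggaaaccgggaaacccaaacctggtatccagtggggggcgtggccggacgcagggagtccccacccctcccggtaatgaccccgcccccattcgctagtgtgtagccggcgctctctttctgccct
Flt1: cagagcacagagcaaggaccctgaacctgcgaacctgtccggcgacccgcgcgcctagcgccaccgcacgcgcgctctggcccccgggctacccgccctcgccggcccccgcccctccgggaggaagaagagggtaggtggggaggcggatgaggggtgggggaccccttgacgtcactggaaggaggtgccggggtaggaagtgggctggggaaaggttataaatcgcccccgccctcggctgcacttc
Cd34: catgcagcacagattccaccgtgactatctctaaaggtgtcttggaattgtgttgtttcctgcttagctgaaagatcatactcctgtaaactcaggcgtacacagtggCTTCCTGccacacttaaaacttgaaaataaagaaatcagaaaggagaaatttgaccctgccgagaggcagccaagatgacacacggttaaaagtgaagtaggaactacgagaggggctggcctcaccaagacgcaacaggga
Emcn: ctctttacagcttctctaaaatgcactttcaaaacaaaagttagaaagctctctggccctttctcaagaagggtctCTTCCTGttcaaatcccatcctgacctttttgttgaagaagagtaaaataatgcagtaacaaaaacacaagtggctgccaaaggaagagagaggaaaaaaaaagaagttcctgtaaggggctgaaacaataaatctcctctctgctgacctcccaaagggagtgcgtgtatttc

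The RefSeq table held promoters of 20 of the 37 genes, in 25 windows. The motif, on either strand, was present in a window of 7 of the 20 genes (35.0%), namely Calcrl, Cd34, Egfl7, Emcn, Erg, Hhex and Robo4, beside 12.1% of all 27025 genes in the table. By window, 8 of 25 held it (32.0%), beside 10.8% of 32851. Counted from the transcription start, the first base of the motif lay at position -142 in Cd34 and at position -174 in Emcn. The windows of Kdr and Flt1 did not hold these letters. A match of letters is a description and no evidence of binding, and the 7 genes with the motif were spread over the range of levels, from Cd34 at a mean of 4.22 to Erg at -0.99.

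Among the lists of cell-type genes, those of heart muscle had the highest levels, followed by fibroblast and then mural cell genes. The endothelial genes lay far lower. Over the 15 libraries the median of the mean levels was 9.67 for 17 cardiomyocyte genes, led by Actc1 (11.69), Myh6 (11.22) and Tnnt2 (11.07), which encode proteins of the contractile apparatus. It was 7.98 for 12 fibroblast genes, led by Sparc (10.18), 5.23 for 10 mural cell genes, led by Acta2 (10.11), and 2.55 for 13 macrophage and leukocyte genes, led by Lyz2 (7.37). The 26 endothelial and angiogenesis genes had a median of 2.02. Of 13 defining markers of endothelial cells (12 with a row, all among the 37 genes), 11 were tested. The median of the 12 markers with a row was 0.94. The 11 tested ones ran from Vwf at 0.14 to Flt1 at 3.99 and Eng at 5.90, which other cells of the heart also express. Erg, the remaining marker with a row, had a mean of -0.99. The median was 1.45 for 10 epicardial and mesothelial genes, of which 9 were tested and Krt18 was highest (6.38). None of 8 erythroid genes had a row in the table.

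The libraries differed from each other within groups as well as between them, and the genes of interest moved with some of these differences. The first principal component of all tested genes held 49.0% of the variance. A list of 22 interferon response genes had mean deviations, from each gene's own mean, of 1.89 to 2.47 in S1, S3, S5, S9 and S10, of 0.35 in S2, and of -1.73 to -0.40 in the other 9 libraries. Libraries of high interferon level were thus 2 of 3 controls, 1 of 4 AngII, 2 of 4 ldCil and 0 of 4 AngII + ldCil libraries. Low values also differed in kind. The log2 RPKM value that the largest number of genes shared exactly lay between -2.04 and -1.29 in S1, S2, S3, S5, S9, S10, S13 and S14, and between -0.51 and 0.00 in the rest, and all 3 controls fell in the first set. Among all 1489 genes with a mean level below 0, 90.2% had a higher mean in AngII than in control libraries (median log2 difference 0.99), 81.1% in ldCil (0.51) and 88% in AngII + ldCil (0.97). For 1088 genes with a mean between 0 and 1 these medians were 0.36, 0.23 and 0.38, and for 6031 genes with a mean of at least 4 they were -0.01, -0.02 and 0.02. A difference from control in a low gene is therefore to be read beside these values for genes of its level, which are repeated below only for some genes.

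**Figure D1:**
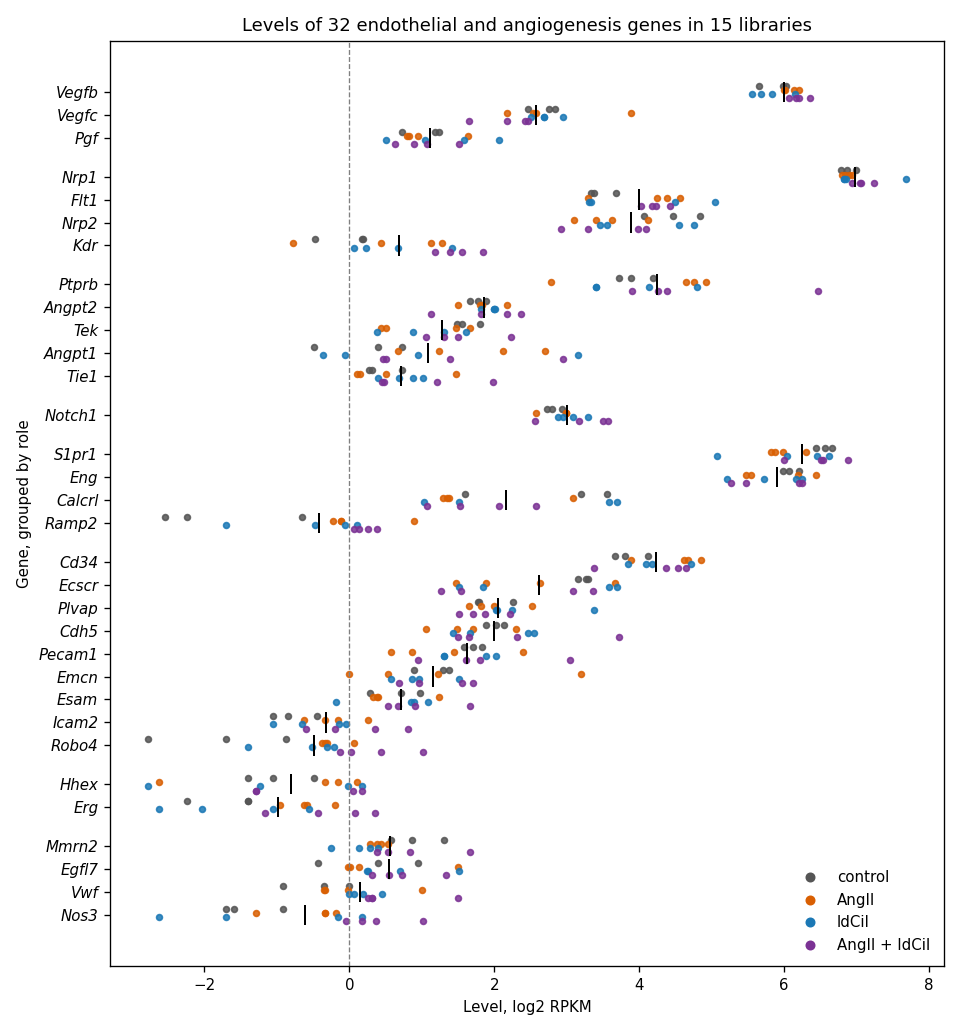
Level (log2 RPKM, x axis) of the 32 genes with a row, grouped by role on the y axis, with 1 point per library coloured by treatment and a vertical bar at the mean of 15 libraries. Nrp1, S1pr1, Vegfb and Eng sat between 5.08 and 7.68 in every library, while the 6 genes below the dashed line at a mean of 0 each had their lowest value in a control or ldCil library.

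The genes of highest level were receptors and a ligand that are not restricted to endothelium. Nrp1, the co-receptor for VEGF and semaphorins (chr8:128358604-128503363, build GRCm38, plus strand), had a mean of 6.97 and exceeded 95.5% of all genes in the table. Next came S1pr1, the receptor for sphingosine 1-phosphate that stabilises vessels (6.25), Vegfb, a ligand of Flt1 that is abundant in heart muscle (6.00), and Eng, a co-receptor of the TGF-beta family (5.90). Ptprb, the phosphatase that acts on Tek and Cdh5, had a mean of 4.24 and Cd34, a surface sialomucin of endothelial and progenitor cells, 4.22. S1pr1, Vegfb and Eng differed from each other by less than the range of each over the libraries, as did Ptprb and Cd34.

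A middle group held Flt1 (3.99), Nrp2 (3.88), Notch1 (3.00), Ecscr (2.62), the lymphatic growth factor Vegfc (2.58), Calcrl (2.17), Plvap (2.05) and Cdh5 (1.99). Flt1 encodes the receptor that binds VEGF with high affinity and signals weakly, and Calcrl the receptor for adrenomedullin and CGRP. Plvap forms the diaphragms of vessel pores, and Cdh5 is VE-cadherin of the endothelial junction. Below them lay Angpt2 (1.86), Pecam1 (1.62), Tek (1.28), Emcn (1.15), Pgf (1.11), Angpt1 (1.09), Esam (0.72), Tie1 (0.71), Kdr (0.69), Mmrn2 (0.56), Egfl7 (0.55) and Vwf (0.14). The lowest level of Flt1 in any library, 3.29, exceeded the highest level of Kdr, 1.85.

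The 6 genes under the line were Icam2 (-0.32), Ramp2 (-0.42), Robo4 (-0.49), Nos3 (-0.61), Hhex (-0.81) and Erg (-0.99). Nos3 makes nitric oxide in endothelium, Robo4 is a guidance receptor of vessels, Ramp2 is the partner that gives Calcrl its affinity for adrenomedullin, and Erg and Hhex are transcription factors of endothelial cells. Of their 90 values, 69 were shared exactly with 10 or more other genes of the same library, against 32 of 390 values of the 26 tested genes. Calcrl was therefore measured well above the line while its partner Ramp2 was not. How reads were assigned to strands is not given in the sources used here, and several genes overlap others in the annotation, among them Ramp2 with Vps25, Nos3 with Atg9b, Eng with Fpgs, Plvap with Gtpbp3, Angpt2 with Mcph1 and Egfl7 with Mir126a and Agpat2, so their values may include reads of those neighbours.

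Single libraries stood out more than treatments in many of these genes. The median SD between libraries of the same group was 0.51 log2 for the 26 genes, against 0.29 for all 12848, and 17 of the 26 exceeded the median of genes of their own level (within 0.5 log2). Group means accounted for a median of 20.3% of the variance of the 26 genes and 18.3% of that of all genes. The largest SD within groups belonged to Angpt1 (1.16), Calcrl (1.02), Ecscr (0.96), Ptprb (0.88) and Emcn (0.81), and the smallest to Vegfb (0.18) and Nrp1 (0.23).

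Library S13 of the AngII + ldCil group held the highest value of 8 of the 26 genes (30.8%), whereas 2.33% of all tested genes had their highest value there. The 8 were Cdh5, Pecam1, Tek, Tie1, Esam, Kdr, Mmrn2 and Vwf. The 11 defining endothelial markers lay on average 1.00 above their own means in S13, followed by 0.45 in S5 (AngII) and 0.27 in S14 (AngII + ldCil), and the lowest library was S7 (AngII, -0.50), while 7 of the 8 genes are themselves defining markers. The cardiomyocyte list in S13 was at -0.11, the macrophage list at 0.60, the fibroblast list at 0.45 and the mural list at 0.28. The part of S13 and of these lists in the results was not tested beyond the fits that left S13 out.

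**Figure D2:**
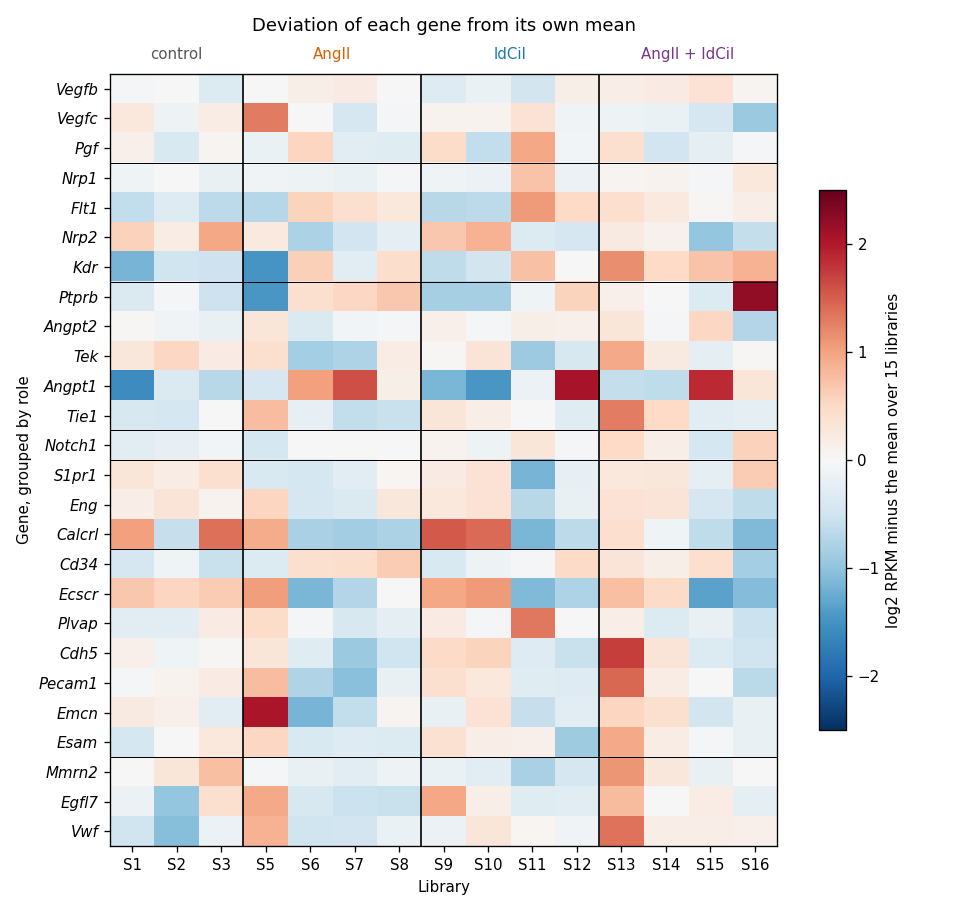
Deviation of the 26 tested genes (y axis, grouped by role) from their own mean over 15 libraries, in log2 RPKM, in each library (x axis, grouped by treatment). Red marks values above the mean and blue values below it: Cdh5, Pecam1, Esam, Tek, Tie1, Kdr, Mmrn2 and Vwf were highest in S13, Emcn in S5, Plvap, Nrp1 and Flt1 in S11, and Ptprb in S16.

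Pecam1 and Cdh5 varied less among the controls (SD 0.12 for each) than within any treated group (SD 0.38 to 1.01), which does not hold for every marker, since the SD of Vwf was 0.46 in control and 0.20 in ldCil. Pecam1, the CD31 adhesion molecule, was 1.58, 1.70 and 1.83 in the controls, 2.40, 0.87, 0.57 and 1.44 in AngII, 2.02, 1.88, 1.31 and 1.30 in ldCil, and 3.05, 1.80, 1.61 and 0.95 in AngII + ldCil. Cdh5 was 2.13, 1.89 and 2.03 in the controls, 2.30, 1.70, 1.06 and 1.49 in AngII, 2.47, 2.55, 1.67 and 1.43 in ldCil, and 3.72, 2.31, 1.65 and 1.50 in AngII + ldCil. Both genes had their highest value in S13 and their treated libraries lay on both sides of the controls. Pecam1 differed from control by -0.38 in AngII, -0.08 in ldCil and 0.15 in AngII + ldCil, and Cdh5 by -0.38, 0.01 and 0.28, with unadjusted limma p-values between 0.422 and 0.977.

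Among the other surface proteins, Cd34 was 3.80, 4.12 and 3.66 in the controls and 3.89, 4.62, 4.67 and 4.85 in AngII. The lowest AngII library, S5, lay within the control range and the other 3 lay above it. Cd34 was 3.84, 4.09, 4.17 and 4.71 in ldCil and 4.54, 4.37, 4.65 and 3.38 in AngII + ldCil, where S16 was the lowest library of all. Esam, a junction protein, had group means of 0.59 to 0.94, and Plvap of 1.83 to 2.42 with a single high value of 3.37 in S11 (ldCil).

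Emcn and Ecscr, named here after their values were seen, showed how differently single libraries moved. Emcn, the sialomucin endomucin of veins and capillaries, was 3.19 in S5 and between 0.00 and 1.22 in the other 3 AngII libraries, while the other groups lay between 0.57 and 1.70. Ecscr, an endothelial surface protein, was 3.16 to 3.30 in the controls, and outside them it was above 3 in S5, S9, S10, S13 and S14 (3.09 to 3.69), 2.63 in S8, and 1.27 to 1.89 in S6, S7, S11, S12, S15 and S16. Calcrl followed a like division, with 3.09 to 3.70 in S1, S3, S5, S9 and S10 and 1.03 to 2.58 elsewhere. Those 5 libraries were the ones of high interferon level. In control, AngII, ldCil and AngII + ldCil the group means were 3.24, 2.41, 2.65 and 2.31 for Ecscr and 2.78, 1.78, 2.46 and 1.81 for Calcrl, with SDs of up to 1.38, and none of the 6 differences from control reached an unadjusted p under 0.05.

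**Figure D3:**
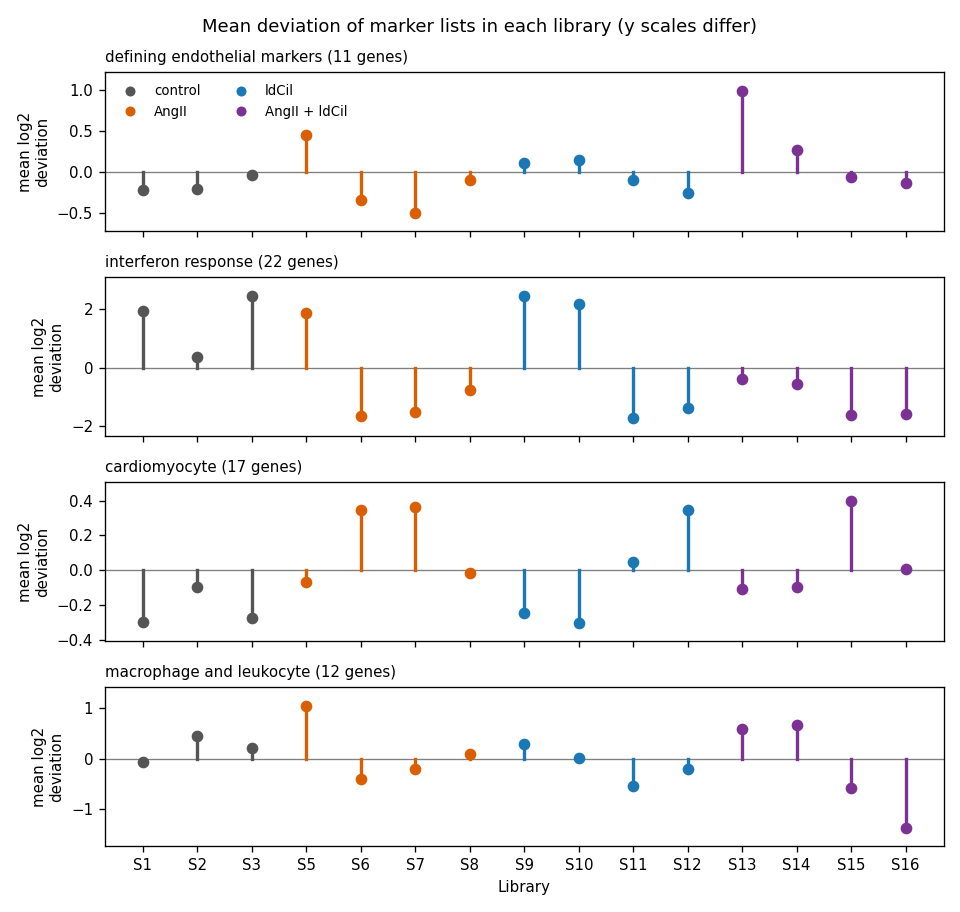
Mean deviation of the tested genes of 4 lists from their own means (y axis, log2, a different scale in each panel) in each library (x axis, coloured by treatment). The defining endothelial markers peaked at 1.00 in S13, the interferon list split the libraries into 5 high, S2, and 9 low, and the cardiomyocyte list stayed between -0.30 and 0.40.

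None of the 26 genes, and 0 of the 12848 genes tested, changed at an adjusted p under 0.05 in any of 5 comparisons (limma, Benjamini-Hochberg adjustment). Each treated group was compared with control, the group with both agents was also compared with AngII alone, and an interaction term gave the effect of ldCil in the presence of AngII minus its effect in the absence of AngII. Among the alternatives tried, a fit with library weights gave adjusted calls, for example of 15 of the 26 genes and 6245 of all genes in AngII, and no other fit did so for the 26 genes. The counts below are of an unadjusted p under 0.05 from the fit without weights, and p-values are 2-sided. The comparisons against control share the same 3 control libraries.

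In AngII libraries, Nrp2 was lower and Cd34 higher than in control. They were the 2 of 26 genes (7.69%) at an unadjusted p under 0.05, beside 6.04% of all tested genes. Nrp2, the co-receptor for Vegfc (chr1:62703285-62818695, plus strand), was 4.46, 4.07 and 4.84 in the controls and 4.12, 3.10, 3.41 and 3.63 in AngII. Only S5 reached the control range. In ldCil Nrp2 was 4.55, 4.75, 3.55 and 3.46. The difference of AngII from control was -0.89 (SE 0.37, unadjusted p = 0.0287, adjusted p = 0.782, limma). Nrp2 was also higher in the libraries of high interferon level, at 4.12 to 4.84, than in the others, at 2.92 to 4.10, and 2 of the 3 controls were among the former. Without S1, S3, S6 or S7 the unadjusted p of Nrp2 exceeded 0.05 (up to 0.118). For Cd34 the difference was 0.65 (SE 0.30, unadjusted p = 0.0494, adjusted p = 0.782, limma), and it stayed under 0.05 in 6 of 15 fits that left out 1 library.

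The libraries of AngII and control did not overlap for 2 of the 26 genes, S1pr1 and Mmrn2, both lower in AngII, beside 8.74% of all tested genes. S1pr1 was 6.56, 6.44 and 6.66 in the controls and 5.87, 5.82, 5.99 and 6.30 in AngII, a difference of -0.56 (unadjusted p = 0.0766, adjusted p = 0.782, limma). Mmrn2, multimerin 2 of the vessel matrix (chr14:34375465-34404287, plus strand), was 0.57, 0.86 and 1.31 in the controls and 0.53, 0.38, 0.29 and 0.43 in AngII, a difference of -0.51 (unadjusted p = 0.139, limma). Of the 26 genes 14 had a higher mean in AngII than in control, beside 53.7% of all genes, and their median difference was 0.05, beside 0.02 over all genes. Without S5 the median was -0.22, with 9 of 26 higher, and without S2 it was -0.01.

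The ldCil libraries differed from control in 1 of the 26 genes (3.85%), Mmrn2, beside 1.95% of all tested genes. Its ldCil values were 0.39, 0.29, -0.26 and 0.14, all below the 3 controls, and the difference was -0.77 (SE 0.32, unadjusted p = 0.0307, adjusted p = 0.966, limma). The values in S11 and S12 were shared exactly with 38 and 49 other genes. Without S2, S3 or S11 the unadjusted p exceeded 0.05, reaching 0.141. Vwf also did not overlap, with ldCil values of -0.0037, 0.45, 0.19 and 0.06 above controls of -0.92 to -0.01, so that 2 of 26 genes were separated, beside 6.87% of all genes. The median difference of the 26 genes was 0.02, beside 0.00 over all genes, and 16 of 26 had a higher mean, beside 50.3%. This median lay between 0.01 and 0.12 when 1 library was left out, and from 0.06 upwards without S1, S3, S9, S10 or S12.

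Kdr showed the largest difference of the 26 genes between AngII + ldCil and control, and its libraries did not overlap. Kdr (VEGF receptor 2, chr5:75932827-75978458, minus strand) was -0.47, 0.19 and 0.17 in the controls and 1.85, 1.18, 1.39 and 1.55 in AngII + ldCil. It was -0.78, 1.28, 0.43 and 1.13 in AngII and 0.06, 0.23, 1.41 and 0.67 in ldCil. The lowest value of AngII + ldCil exceeded every control, as did 3 of 4 AngII and 3 of 4 ldCil libraries, and the lowest value of all was S5 of the AngII group. Kdr was 1.53 higher in AngII + ldCil than in control (SE 0.46, 95% interval 0.55 to 2.51, 2.89-fold, unadjusted p = 0.00465, adjusted p = 0.849, limma).

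This difference had an unadjusted p under 0.05 in all 15 fits that left out 1 library, with log2 differences of 1.32 to 1.64 and p-values of 6.9e-04 to 0.0255. Kdr lies in the range of low levels in which genes as a whole were higher in treated libraries, with a median of 0.38 and 73.8% of 1088 genes above 0 in this comparison, and its value in S1 was shared with 30 other genes. Kdr was also lowest in the 3 controls, S5, S9 and S10 (-0.78 to 0.23), which are the 5 libraries of high interferon level and S2, and 0.43 to 1.85 in the other 9, which include no control, so within those 9 the comparison with control cannot be made. Within the 8 libraries whose most shared low value was below -1, Kdr was 1.85 in S13 and 1.18 in S14 and at most 0.23 in the rest, controls included. S13 and S14 also had lower means of the interferon list (-0.40 and -0.55) than that rest (0.35 to 2.47). Treatment with both agents and interferon level therefore cannot be told apart within these 8 libraries. In both S15 and S16, 3 of the 11 tested defining markers (Kdr, Flt1 and Vwf) lay above every control. Another 3 (Cdh5, Tek and Eng) lay below every control, and the other 5 (Pecam1, Tie1, Emcn, Egfl7 and Esam) did neither. The shares of all tested genes that did so were not computed, so these counts cannot be called particular to the markers. Whether the difference in Kdr goes with the number of endothelial cells was not tested. Against AngII, Kdr was 0.98 higher in AngII + ldCil (SE 0.42, unadjusted p = 0.0366, adjusted p = 1.00, limma), with overlapping libraries. This was the 1 of 26 genes (3.85%) under an unadjusted p of 0.05, beside 2.58% of all genes, and without S5, S7, S13, S15 or S16 the p exceeded 0.05 (up to 0.141, with a difference down to 0.55). The libraries of AngII + ldCil and AngII were separated for 0 of 26 genes, beside 1.55% of all genes. Their median difference was 0.16, beside 0.01 over all genes, and 18 of 26 had a higher mean in AngII + ldCil, beside 52.4%. Without S5 the median was 0.27, without S15 it was 0.25, and without S13 it was 0.12, with 15 of 26 higher.

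**Figure D4:**
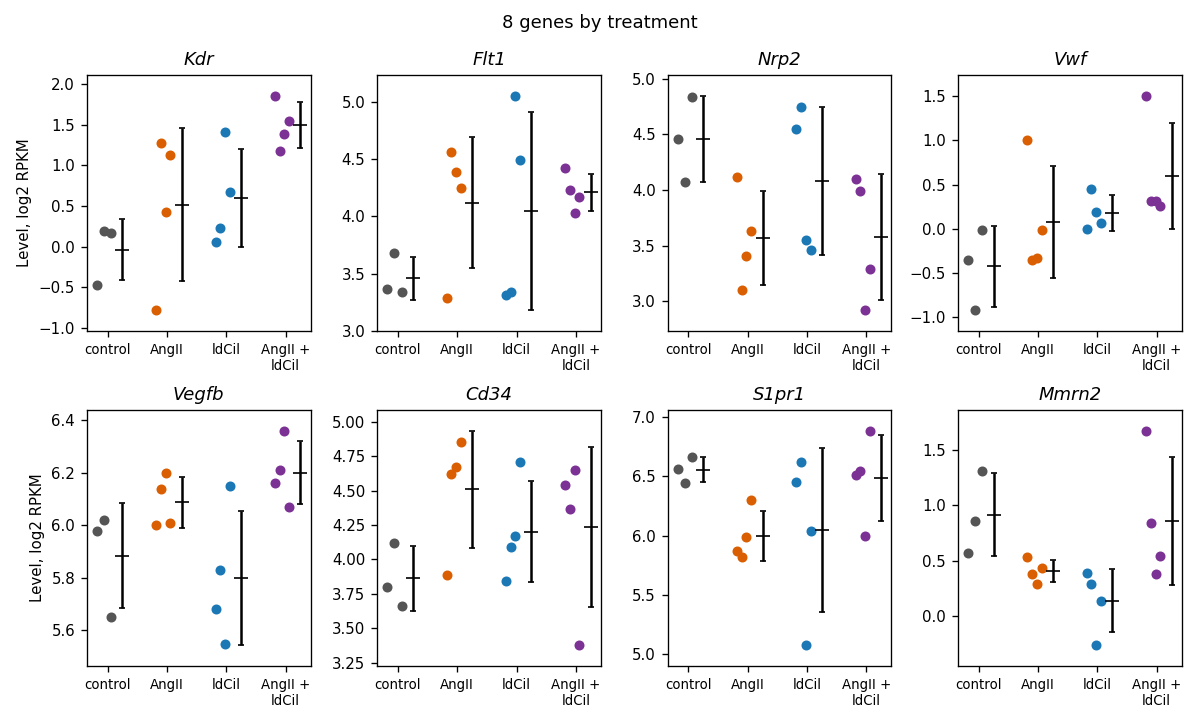
Level (log2 RPKM, y axis, a different scale in each panel) of 8 genes by treatment, with 1 point per library and the mean with its SD beside the points (n = 3 controls and 4 libraries in each other group). All 4 AngII + ldCil libraries of Kdr, Flt1, Vwf and Vegfb lay above the 3 controls, and all AngII and ldCil libraries of Mmrn2 lay below them.

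The other genes at an unadjusted p under 0.05 between AngII + ldCil and control were Vwf, Nrp2 and Vegfb, which made 4 of 26 genes (15.4%) with Kdr, beside 5.62% of all tested genes. Vwf, von Willebrand factor of endothelial granules (chr6:125546774-125686679, plus strand), was -0.35, -0.92 and -0.01 in the controls and 1.50, 0.31, 0.31 and 0.26 in AngII + ldCil. In AngII it was 1.00, -0.35, -0.33 and -0.02. S13 and S5 were therefore far above the others of their groups, as in the mean of the defining endothelial markers, a list that includes Vwf itself. The difference of AngII + ldCil from control was 1.02 (SE 0.41, unadjusted p = 0.0263, adjusted p = 0.849, limma), and without S13 or S2 it exceeded an unadjusted p of 0.05 (0.114 at most). Vwf has the lowest mean of the tested genes and shared its value with 10 or more other genes in 9 of 15 libraries. The 1088 genes with a mean between 0 and 1 had a median difference of 0.38 in this comparison and 0.23 in ldCil. In this comparison 11.4% of them were higher and 3.4% lower at an unadjusted p under 0.05 (limma, no filter on low values). Kdr and Vwf lie in this range of levels, and Nrp2 and Vegfb lie above it.

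Vegfb was 5.98, 6.02 and 5.65 in the controls and 6.16, 6.21, 6.36 and 6.07 in AngII + ldCil. It was 6.00, 6.14, 6.20 and 6.01 in AngII and 5.68, 5.83, 5.55 and 6.15 in ldCil. All 4 AngII + ldCil libraries lay above the controls, by a small margin in S16. The difference from control was 0.32 (SE 0.14, 1.25-fold, unadjusted p = 0.0401, adjusted p = 0.849, limma), and it was lost without S3, S13, S14 or S15. Nrp2, at 4.10, 3.99, 2.92 and 3.29 in AngII + ldCil, differed from control by -0.88 (SE 0.37, unadjusted p = 0.0301, adjusted p = 0.849, limma), close to its difference in AngII, and it was lost without S1, S3, S15 or S16.

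Flt1 was 3.37, 3.68 and 3.34 in the controls and 4.42, 4.23, 4.03 and 4.17 in AngII + ldCil, which did not overlap. The difference was 0.75 (unadjusted p = 0.0671, adjusted p = 0.849, limma). In AngII and ldCil Flt1 had 3 and 2 libraries above 4 and the rest at 3.29 to 3.34, and those low libraries (S5, S9 and S10) were again of high interferon level. With Kdr, Vwf and Vegfb, 4 of 26 genes were separated upwards from control, beside 7.35% of all tested genes, and 13.5% of all genes were separated in either direction. The median difference of the 26 genes was 0.17, beside 0.05 over all genes, and 16 of 26 had a higher mean in AngII + ldCil, beside 58.4% of all genes. Without S13 the median was -0.04, with 12 of 26 higher.

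**Figure D5:**
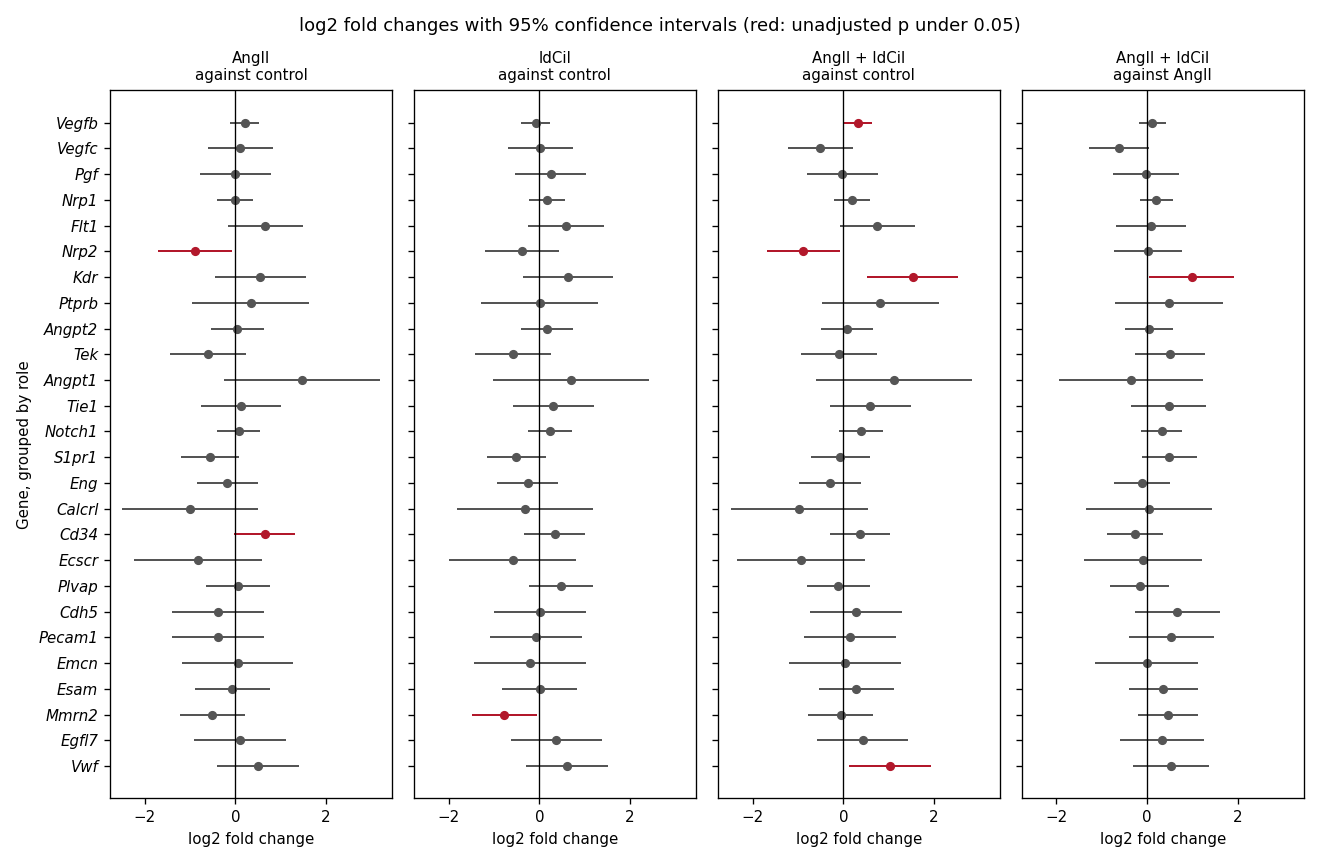
Log2 fold changes (x axis) of the 26 tested genes (y axis, grouped by role) in 4 comparisons, with 95% confidence intervals from limma and an unadjusted p under 0.05 in red. Kdr in AngII + ldCil against control stood at 1.53 with an interval of 0.55 to 2.51, and most intervals of the other genes held 0.

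The response to cilengitide with and without AngII was compared in the interaction. For 2 of 26 genes (7.69%) it had an unadjusted p under 0.05, beside 3.86% of all tested genes. Mmrn2 had group means of 0.91 in control, 0.41 in AngII, 0.14 in ldCil and 0.86 in AngII + ldCil, where its values were 1.67, 0.84, 0.38 and 0.54. Its interaction was 1.23 (SE 0.44, unadjusted p = 0.0144, adjusted p = 0.958, limma), with an unadjusted p under 0.05 in all 15 fits without 1 library. Mmrn2 is a low gene and shared its value with 10 or more other genes in 4 of 15 libraries, among them S11 and S12 of the ldCil group. The 1088 genes with a mean between 0 and 1 had a median interaction of -0.25. S1pr1 was 6.51, 6.54, 6.00 and 6.88 in AngII + ldCil and 6.45, 6.62, 5.08 and 6.04 in ldCil, and its interaction was 1.00 (SE 0.40, unadjusted p = 0.0252, adjusted p = 0.958, limma), lost without S3 or S16. Both genes had lower means with 1 agent and a mean near control with both. The median interaction of the 26 genes was 0.18, beside 0.02 over all genes, and 17 of 26 were above 0, beside 52.2%. Without S13 the median was 0.04, with 14 of 26 above 0, without S7 or S12 it was 0.06, without S14 or S11 it was 0.095 and 0.11, and without S15 it was 0.32. Tek, the angiopoietin receptor (chr4:94739289-94874976, plus strand), had an interaction of 1.08 (unadjusted p = 0.0546). It was 1.56, 1.80 and 1.49 in the controls, 1.67, 0.43, 0.50 and 1.47 in AngII, 1.30, 1.61, 0.38 and 0.88 in ldCil, and 2.23, 1.50, 1.06 and 1.31 in AngII + ldCil.

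The other members of the Tie axis gave no difference at an unadjusted p under 0.05. Angpt1, the agonist of Tek (named after its values were seen), was at -0.49 to 0.73 in the controls and at 2.12, 2.70, 3.15 and 2.95 in S6, S7, S12 and S15, which belong to 3 groups. Those libraries had the 4 highest means of the cardiomyocyte list, 0.34 to 0.40. The AngII mean of Angpt1 exceeded control by 1.47 (SE 0.79, unadjusted p = 0.0845, adjusted p = 0.782, limma). Angpt2, its antagonist in many settings, had group means of 1.78 to 1.95. Tie1 had means of 0.43 to 1.03, with its highest values in S13 (1.98) and S5 (1.47).

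Ptprb was 3.89, 4.19 and 3.72 in the controls and 2.78, 4.64, 4.76 and 4.92 in AngII. It was 3.41, 3.41, 4.13 and 4.80 in ldCil and 4.38, 4.26, 3.90 and 6.47 in AngII + ldCil. The highest and lowest values thus came from single libraries of the AngII + ldCil and AngII groups. Nrp1 was 6.87, 6.99 and 6.78 in the controls, 6.89, 6.84, 6.80 and 6.93 in AngII, 6.86, 6.83, 7.68 and 6.83 in ldCil, and 7.04, 7.06, 6.93 and 7.24 in AngII + ldCil, so that S11 of the ldCil group alone stood apart. Eng was 6.07, 6.21 and 5.99 in the controls, 6.44, 5.48, 5.54 and 6.19 in AngII, 6.17, 6.25, 5.21 and 5.72 in ldCil, and 6.25, 6.21, 5.47 and 5.26 in AngII + ldCil. Each treated group held libraries on both sides of the controls, and no difference of Eng or Nrp1 reached an unadjusted p under 0.05.

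Of the ligands and the remaining receptors, Vegfc differed by -0.62 between AngII + ldCil and AngII (unadjusted p = 0.0592, adjusted p = 1.00, limma), with 3.89 in S5 and 1.65 in S16 at its extremes. Pgf, a second ligand of Flt1, had group means of 1.03 to 1.30. Notch1 had group means of 2.82 to 3.20, and was 0.39 higher in AngII + ldCil than in control (unadjusted p = 0.0948). Egfl7, a secreted vessel protein, had group means of 0.30 to 0.73.

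The 6 low genes were highest in AngII + ldCil by group mean. Robo4 was -0.88, -2.78 and -1.70 in the controls and 1.01, 0.02, 0.43 and -0.13 in AngII + ldCil, and Nos3 was -1.59, -0.92 and -1.70 and then 1.01, -0.04, 0.18 and 0.37. In a fit with no filter on low values, their log2 differences from control were 2.12 for Robo4, 2.02 for Ramp2, 1.78 for Nos3 and 1.39 for Erg, with unadjusted p-values of 4.88e-04 to 0.0236 and an adjusted p of 0.662 for each. Hhex, at 0.40, and Icam2, at 0.87, had p-values of 0.619 and 0.0519. These values stand beside a median of 0.97 over all 1489 genes below the line in the same comparison, of which 23.2% had an unadjusted p under 0.05. Ramp2 and Robo4 also had an unadjusted p under 0.05 in AngII (1.92 and 1.55) and in ldCil (1.28 and 1.18), where the 1489 genes had medians of 0.99 and 0.51 and 26.6% and 7.79% of them had such a p. Against AngII, none of the 6 genes reached an unadjusted p under 0.05 in this fit, and 1 of the 1489 did.

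Wider lists of the pathway were set beside the 37 genes. Of 42 tested genes of angiogenesis signalling, 4 (9.52%) had an unadjusted p under 0.05 in AngII against control, 3 (7.14%) in ldCil and 3 (7.14%) in AngII + ldCil, beside 6.04%, 1.95% and 5.62% of all tested genes. Apln, the ligand of the apelin receptor, was higher than control by 1.18 in AngII, 1.23 in ldCil and 1.79 in AngII + ldCil. The unadjusted limma p-values of Apln were 0.0348, 0.0286 and 0.00309, and the adjusted ones 0.782, 0.966 and 0.849. Hif1a, the hypoxia-inducible factor, differed by -0.76 in AngII and -0.73 in AngII + ldCil. Sema3a, a repellent ligand of Nrp1, differed by 1.07 and the guidance receptor Robo1 by -0.92 in AngII, and Angptl4 by -1.93 in AngII + ldCil.

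S1pr3 and Pdgfb, the platelet-derived ligand of pericytes, were 1.25 and 1.01 higher in ldCil than in control, with interactions of -1.45 and -1.46. Notch2 was the 1 gene of this list (2.38%) at an unadjusted p under 0.05 in AngII + ldCil against AngII, 0.33 higher, beside 2.58% of all tested genes. Vegfa, the main ligand of Kdr and named here for that role, had a mean of 6.83 and differences from control of 0.26 to 0.49, with unadjusted p-values of 0.296 to 0.572.

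Of 16 tested further endothelial genes, Sele, the E-selectin of activated endothelium, had a difference from control of -2.01 in AngII and -2.03 in AngII + ldCil (unadjusted limma p-values of 0.0331 and 0.0316). These made 1 of 16 genes in AngII (6.25%) and, with the next 2, 3 of 16 in AngII + ldCil (18.8%), beside 6.04% and 5.62% of all genes. Selp, the P-selectin, differed by -2.02 and Myct1 by 0.75 in AngII + ldCil, and none of the 16 was at an unadjusted p under 0.05 in ldCil. Of 4 lymphatic and endocardial genes 1 (25%) was at such a p in AngII, beside 6.04% of all genes. It was Flt4, the receptor for Vegfc, which differed by -1.28. The medians of the 16 genes were -0.26, 0.00 and -0.04 in AngII, ldCil and AngII + ldCil against control, beside 0.05, 0.02 and 0.17 for the 26 genes, and whether the lists differ was not tested.

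Lists of other cell types gave the setting for these comparisons. Of 17 cardiomyocyte genes 2 were higher in AngII (Myl4 and Tnni3) and 1 in AngII + ldCil (Myh7), of 10 mural genes Tagln was higher in both (0.59 and 0.70), and of 12 macrophage genes Cd14 and Csf1r were lower in AngII + ldCil, all at an unadjusted p under 0.05 and named after their values were seen. By the same rule Dcn of 12 fibroblast genes differed by -2.66 in AngII + ldCil, and of 9 epicardial genes Upk3b by 1.62 and Aldh1a2 by -1.66. These single genes do not stand for their lists. In AngII + ldCil, 5 of the 12 macrophage genes and 4 of the 12 fibroblast genes had a higher mean than in control (medians -0.09 and -0.15). The same held for 5 of the 9 epicardial, 7 of the 10 mural and 14 of the 17 cardiomyocyte genes (medians 0.03, 0.13 and 0.13). Of the 22 interferon response genes 6 (27.3%) were lower in AngII, 0 in ldCil and 17 (77.3%) in AngII + ldCil, at an unadjusted p under 0.05. For all tested genes the share at such a p, in either direction, was 6.04% in AngII, 1.95% in ldCil and 5.62% in AngII + ldCil. In AngII + ldCil the shares of the cardiomyocyte, mural, macrophage, fibroblast and epicardial lists were 5.88%, 10%, 16.7%, 8.33% and 22.2%. In AngII those of the cardiomyocyte and mural lists were 11.8% and 10%. The part of these lists in the differences of the endothelial genes was not tested.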

How the data were processed

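Per the study's methods the authors aligned poly(A) RNA-seq reads with HISAT2 to GRCm38/mm10 and counted genes with HTSeq. Versions, annotation release and strand setting were not given in the sources used here. Deposited values are log2 RPKM after conditional quantile normalisation, made by the authors for 14337 genes in 15 libraries. They hold no counts, so depth is unknown and no counting interval was given. The median level was 3.59 in every library.

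From these values, identifiers were matched to GENCODE M21 (14329 of 14337). The 12848 genes whose mean over all libraries reached 0 were fitted with limma 3.58.1 in R 4.3.3, with 1 mean per group over all 15 libraries, a trended empirical Bayes prior and Benjamini-Hochberg adjustment. The fitting code was tested on simulated data. The members and lists were chosen with earlier results of these data known. Named genes were all 37 members, those of the cell-type lists with the 3 highest levels, and listed genes at an unadjusted p under 0.05; genes named otherwise are said to be chosen after their values were seen. Alternatives changed the filter, a pseudocount, the scaling, the samples fitted, the moderation, library weights, and the libraries left out. Promoters and motifs came from RefSeq (GRCm38.p6).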

Additional observations from a re-analysis of the deposited data

Results flagged for a closer look

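In groups of 4 libraries, 9 of 78 sets of values of the 26 tested genes (11.5%) had 1 library far from the other 3 by Dixon's 95% criterion, which chance passes in about 1 of 20 sets. The share over all tested genes was not computed, so the count is not particular to these genes. S5 held the highest value of 21.8% and the lowest of 21.8% of all tested genes, and S11 of 15.1% and 13.1%. Of the 9 sets, 5 were in S5 (AngII), in which Ptprb was low at 2.78 and Notch1 at 2.57, and Calcrl was high at 3.09, Esam at 1.24 and Egfl7 at 1.50. In S11 (ldCil) Nrp1 was high at 7.68 and Plvap at 3.37. In S10 (ldCil) Angpt2 was low at 1.81, in a group whose other values lay within 0.02 of each other, and in S13 (AngII + ldCil) Vwf was high at 1.50.

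The response to cilengitide differed with and without AngII, by the interaction term at an unadjusted p under 0.05, for Mmrn2 (1.23) and S1pr1 (1.00), and neither passed the adjustment over all genes (adjusted p = 0.958 for both, limma).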

How the results depend on the processing

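No paired analysis was possible because the labels number the libraries S1 to S16 across the groups, so that no 2 groups share a number. With no adjusted call to lose, the values below concern the counts of members at an unadjusted p under 0.05 (2, 1 and 4 in AngII, ldCil and AngII + ldCil against control, 1 against AngII and 2 in the interaction) and the median differences. With no filter on low values the first 3 counts were 4, 3 and 8 of 32 genes, beside 8.2%, 2.53% and 7.46% of all 14337 genes (6.04%, 1.95% and 5.62% with the filter). With a filter at a mean of 2, which leaves 13 genes, the counts were 1, 0, 2, 0 and 1 (all genes 4.91%, 1.2%, 4.24%, 2.83% and 3.82%), and the median of AngII + ldCil against control was -0.070. With only the groups compared (not run for the interaction) the count in AngII was 4 (all genes 8.18%), and with no trend it was 1 (6.14%). Without S5 and S16 together the counts were 5 in AngII, with a median of -0.22, and 5 against AngII, beside 14.7% and 1.82% of all genes.

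Library weights, which ranged from 0.11 in S5 to 7.01 in S1, gave unadjusted counts of 16, 0, 16, 18 and 11 (all genes 55.5%, 12.3%, 32.7%, 44.9% and 36.4%), a median of 0.60 against AngII, and adjusted calls of 15 genes in AngII, 9 in AngII + ldCil, 15 against AngII and 6 in the interaction. The same fit called 6245, 2311, 4048 and 2387 of all 12848 genes in those comparisons. Alternatives were tabulated for 14 differences of single members, those at an unadjusted p under 0.05 or with separated libraries. Of these, 10 passed an adjusted p of 0.05 with the weights, and the other 345 values kept their direction and their side of that threshold. In fits that left out 1 library, the counts ranged from 0 to 4 in AngII, 0 to 3 in ldCil, 2 to 6 in AngII + ldCil, 0 to 3 against AngII and 1 to 3 in the interaction, with 0 adjusted calls in each. The medians ranged from -0.22 to 0.076, 0.01 to 0.12, -0.04 to 0.25, 0.12 to 0.27 and 0.04 to 0.32 in those fits. Quantile normalisation gave medians of -0.089 in AngII (11 of 26 higher), 0.055 in AngII + ldCil and 0.28 in the interaction, beside 0.05, 0.17 and 0.18 in the main fit. With library weights the median was -0.13 in AngII (8 of 26 higher) and 0.36 in AngII + ldCil. The filter at 2 gave 0.034 against AngII, beside 0.16. Why these counts and medians moved was not tested. Median centring, quantile normalisation, added pseudocounts and robust moderation moved none of the counts by over 1.5 times, and no result changed direction with a call. The median level was already 3.59 in every library, so median centring could change little and is a weak check. Depth is unknown, so what it limits cannot be given.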
